A study of Mus musculus with 2 samples.

Results

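The genes described here are the ATP-binding cassette (ABC) transporters, the organic anion transporting polypeptides (OATPs, the *Slco* genes) and the *Slc22* family of organic ion carriers, in cultured mouse hepatocytes with and without a liver deletion of *Drp1*. They were chosen by name alone: every gene of the array design with a symbol of the form *Abca* to *Abcg*, *Slco* or *Slc22a* followed by its number, except 2 genes of these families that are not analysed here. This gave 88 genes, read by 181 probes in 190 spots, among 37071 gene names and 56600 probes for transcripts. Of the 88 genes, 48 are ABC genes, 15 are *Slco* genes and 25 are *Slc22* genes.

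Control cells came from *Drp1*flox/flox littermates without Cre, labelled as wild type, and *Drp1*LiKO cells from *Drp1*flox/flox mice that also carried 1 albumin-Cre transgene, and both are labelled as of C57BL/6 background. Both groups thus carried the floxed alleles. Drp1, encoded by *Dnm1l*, is the GTPase that constricts and divides mitochondria, and the albumin promoter directs Cre to hepatocytes. The hepatocytes were isolated by collagenase perfusion and low-speed spinning and were harvested 24 h after seeding. The RNA was that of the whole culture, 1 array was read per genotype, and the number of animals behind an array is not given in the sources used here. The methods give an age range and male sex for purchased C57BL/6 J mice, but not for the floxed littermates of the arrays.

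With 1 array per genotype no difference could be set against a spread between cultures, so the text holds no test and no p-value. Precision is limited by having 2 arrays in all. Signals are the background-subtracted intensities of the scanner software, log2 ratios are *Drp1*LiKO minus control after the 75th percentile of each array (a signal of 313 and 356) was subtracted, and the brightest probe stands for a gene. A gene is called past the threshold where its Z score among all detected probes was at least 2 in size, which corresponds to a log2 ratio of 1.30 or -1.31. Where a probe was well above background on 1 array only, its dim signal was set to the lowest one that was, 18.2 on the control and 15.0 on the *Drp1*LiKO array, unless its own was higher, and such a ratio is a bound, written as at least so many fold. Probes printed 10 times varied between spots by a median SD of 0.200 and 0.260 on the log2 scale at signals under 64, and of 0.037 and 0.041 at signals of 256 or more, and this spot noise holds no difference between cultures.

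The targeted gene *Dnm1l* gave 2602 on the control and 1217 on the *Drp1*LiKO array, a log2 ratio of -1.28 and a Z score of -1.95. All 11 hepatocyte markers found on the array were detected in both cultures, among them *Alb*, the gene of serum albumin, at a log2 ratio of 0.10. Most detected markers of macrophages, endothelial cells and stellate cells were also higher in the *Drp1*LiKO culture. Their values are given beside the transporters they accompany. Detected markers of cholangiocytes lay on both sides of 0. In a whole culture, fewer cells of a type and less RNA per cell cannot be told apart.

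ABC transporters use ATP to push lipids, bile acids, conjugates and drugs across membranes, and OATPs and SLC22 carriers move organic anions and cations, mostly into cells, without spending ATP directly. In a hepatocyte, uptake carriers lie on the sinusoidal side facing the blood, several ABC pumps lie on the canalicular membrane and secrete into bile, and other ABC pumps return compounds to the blood. Many of these genes are known targets of nuclear receptors, and freshly plated hepatocytes are known to lose much of their uptake carriers in culture.

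The array reads a gene through a probe of 60 bases, and for the genes past the threshold these probe letters are what was measured. A stretch of 30 bases of the brightest probe is shown for *Slco4a1*, *Slc22a30* and *Abca8a*, which passed the threshold, and for *Abcb1a* and *Abcb1b*, a pair of neighbouring genes whose array signals differed in direction. For *Slc22a28* the stretch is from its dimmer probe, which shares letters with that of *Slc22a30*. All are written 5′ to 3′ as printed on the array, and capitals mark the run of 23 bases that the *Slc22a30* and *Slc22a28* probes have in common.
Slco4a1: gcagcttgtgtggacagtgtgtttctatgt
Slc22a30: tttgTTCAGGACATGGTGACAATTTTCtca
Slc22a28: tgtaTTCAGGACATGGTGACAATTTTCcca
Abca8a: aggaagaggctaaccctgacatttttacct
Abcb1a: actcagacatgggcacctgagttcagatcc
Abcb1b: tccaggctggagcaaagcgctcatgagctg
In mm9, the build of the array design, these probes lie at chr2:180209483-180209542 for *Slco4a1*, chr19:8410155-8410214 for *Slc22a30*, chr19:8136749-8136808 for *Slc22a28*, chr11:109886935-109886984 for *Abca8a*, chr5:8748075-8748134 for *Abcb1a* and chr5:8865925-8865984 for *Abcb1b*. Whether each falls in an exon or a UTR was not looked up, because no annotation of that build was used here. Of 106 detected transporter probes, 6 shared a run of at least 18 bases with a probe of another gene name. Beside *Slc22a30* and *Slc22a28*, these were the probes of *Slc22a21* and *Slc22a5*, carnitine carriers that share a run of 33 bases, and single probes of *Abcf1* and *Abcg4*. The signals of such probes may hold RNA of both genes.

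Of the 88 genes, 61 were well above background on at least 1 array. Of these, 57 were measured on both arrays and 4 (*Slco4a1*, *Abcc9*, *Slco1a5* and *Slc22a6*) gave a bound. The remaining 27 genes were not well above background on either array and have no ratio. They include *Slco1a4*, a sinusoidal OATP of mouse liver, *Slc22a3*, an organic cation carrier, and 6 of 12 ABCA genes outside the cholesterol and lysosomal groups.

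Past the threshold were 3 genes that were higher in *Drp1*LiKO cells, 4.92% of the 61, and 3.50% of all 20165 genes compared were higher by the same measure. In the other direction, 1 gene was lower (1.64%), beside 2.81% of all genes. Under this processing both shares lie near those of all genes. Counted by probe, 4 of the 106 detected transporter probes were higher past the threshold and 1 was lower, beside 2.94% and 2.49% of all detected probes. The median log2 ratio of the 61 genes was -0.02, beside -0.05 over all genes, and 26 (42.6%) had a ratio above 0, beside 44.5%. Of the 57 genes measured on both arrays, 39 lay within 0.5 of 0 on the log2 scale, and 7 (12.3%) lay beyond 1 in either direction, as did 7.12% of all genes measured on both arrays.

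By family, the median log2 ratio was -0.11 over 38 ABC genes, 0.40 over 7 *Slco* genes and -0.01 over 16 *Slc22* genes. Ratios above 0 were found in 14 of the 38 ABC genes, in 5 of the 7 *Slco* genes and in 7 of the 16 *Slc22* genes. Only 7 of 15 *Slco* genes were detected, so their median rests on few genes, and 2 of these 7 ratios are bounds. The brightest probes of these 2, *Slco4a1* and *Slco1a5*, were compared only because the *Drp1*LiKO array read them well above background. Of the 5 *Slco* genes measured on both arrays, 3 had ratios above 0, with a median of 0.40.

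**Figure D1:**
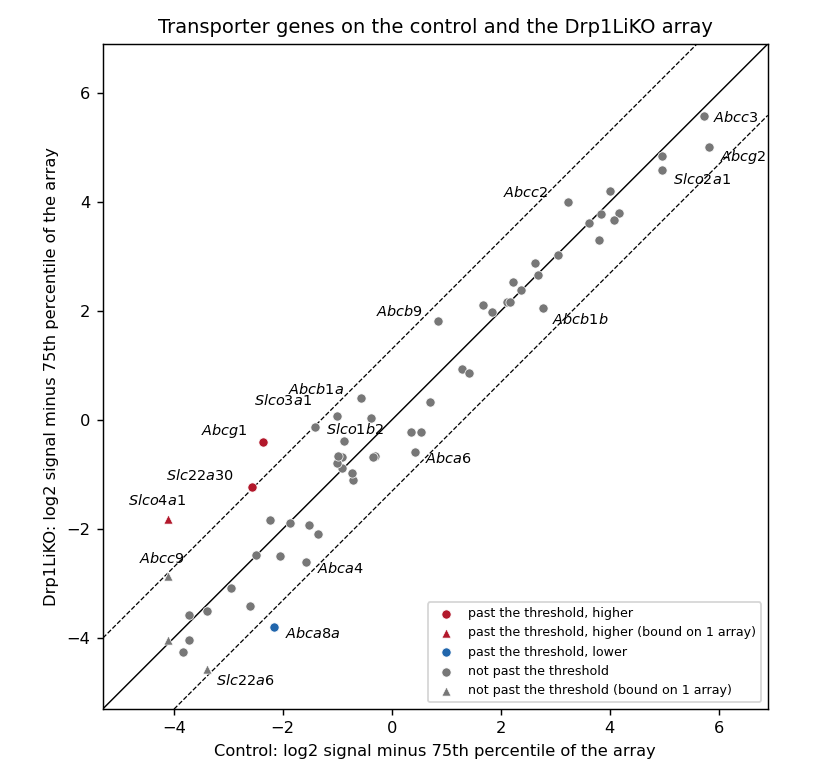
The plot sets the log2 signal of each transporter gene on the control array (x axis) against that on the *Drp1*LiKO array (y axis), both relative to the array's 75th percentile, with the line of equal signal and dashed lines at Z scores of 2 and -2. Most of the 61 genes lie between the dashed lines; *Abcg1*, *Slc22a30* and *Slco4a1* lie above them and *Abca8a* lies below them, and triangles mark ratios that are bounds.

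Among the pumps that secrete into bile, 7 of 7 were detected on both arrays. None passed the threshold, 5 were lower and 2 were higher, and the median log2 ratio was -0.33. In the normalized values that the authors deposited, *Abcb1a* was lower as well, which gives 6 lower and 1 higher.

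*Abcb1a* and *Abcb1b* encode the drug efflux pump P-glycoprotein, which mice make from a pair of genes. *Abcb1a* gave 211 on the control and 470 on the *Drp1*LiKO array, a log2 ratio of 0.97, and *Abcb1b* a signal of 2137 and 1482, a log2 ratio of -0.71. The 2 genes therefore differed in direction. The second detected probe of *Abcb1b* read 38.5 and 19.5, a log2 ratio of -1.17, while *Abcb1a* had 1 detected probe. In the deposited values, the same *Abcb1a* probe stood at 226 for control and 159 for *Drp1*LiKO, a log2 ratio of -0.51, so the direction of *Abcb1a* depends on the source of the values.

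*Abcc2*, which exports bilirubin glucuronides and other conjugates into bile, gave 2933 on the control and 5661 on the *Drp1*LiKO array, a log2 ratio of 0.77. *Abcg2*, the breast cancer resistance protein, which exports sulfates and urate, read 17647 and 11492, a log2 ratio of -0.80 and the lowest of the 7. *Abcb4*, the floppase that supplies phosphatidylcholine to bile, read 4380 and 3491, a log2 ratio of -0.51, and its other 2 probes gave -0.65 and -0.57. *Abcb4* thus was lower on all of its probes by a similar amount.

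*Abcg5* and *Abcg8* form the heterodimer that secretes cholesterol and plant sterols. *Abcg5* read 247 and 223, a log2 ratio of -0.33, and *Abcg8* read 189 and 182, a log2 ratio of -0.24. Both ratios were small beside the spread of all probes (SD 0.65) and close to the spot noise of 0.202 expected at these signals.

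The pumps that return compounds to blood were *Abcc3*, *Abcc4*, *Abcc5* and *Abcc6*, with a median log2 ratio of 0.36. None passed the threshold. *Abcc3*, an exporter of glucuronides, read 16567 on the control and 16938 on the *Drp1*LiKO array, a log2 ratio of -0.15, and 0.07 in the deposited values. *Abcc4*, which exports bile acids and cyclic nucleotides, read 1470 and 2056, a log2 ratio of 0.30. *Abcc6*, mutated in pseudoxanthoma elasticum, read 171 and 273, a log2 ratio of 0.49, with 0.63 on its second probe. These 3 genes lay within 0.5 of 0.

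*Abcc5*, an exporter of cyclic nucleotides, had 6 probes on both arrays. The brightest read 1004 on the control and 1532 on the *Drp1*LiKO array, a log2 ratio of 0.43. Over the 6 probes the ratios ran from -0.41 to 0.79, and 5 of the 6 were above 0.

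Sinusoidal uptake carriers had a median log2 ratio of 0.40 over the 5 detected genes, none of them past the threshold. *Slco1b2*, the liver OATP for bilirubin, bile acids and statins, gave 118 on the control and 325 on the *Drp1*LiKO array. Its log2 ratio of 1.28 and Z score of 1.98 fell just short of the threshold, and its other probe was not above background on either array. With only probes well above background on both arrays taken into the Z score, *Slco1b2* passed.

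*Slco1a1*, an OATP for conjugated steroids and bile acids, read 66.7 on the control and 100 on the *Drp1*LiKO array, a log2 ratio of 0.40, with 0.13 on its second probe. *Slc22a7* (OAT2), an organic anion carrier, read 239 and 366, a log2 ratio of 0.43, but -0.08 in the deposited values. Both lay within 0.5 of 0.

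*Slco2b1*, a broad OATP, read 75.6 on the control and 62.9 on the *Drp1*LiKO array, a log2 ratio of -0.45, while its second probe read 26.6 and 53.1, a log2 ratio of 0.81. The array design places the brighter probe on the plus strand and the other on the minus strand of chromosome 7, so they do not read the same strand. No direction is given for *Slco2b1*.

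**Figure D2:**
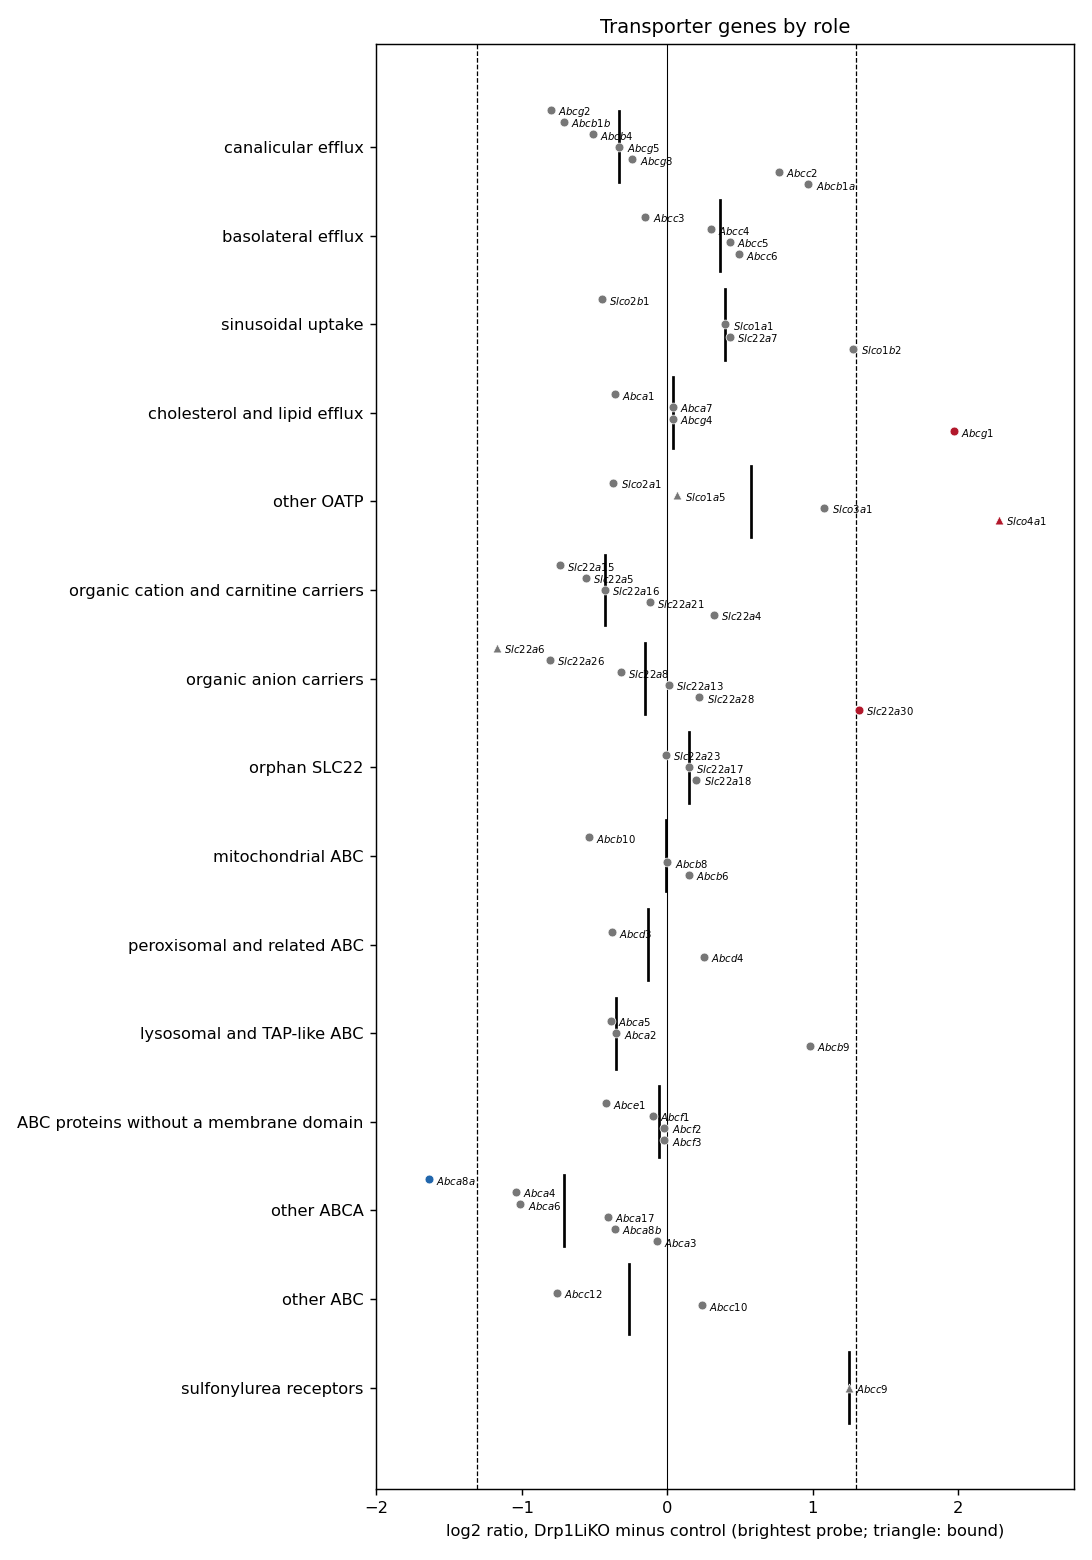
Each point is the log2 ratio of a transporter gene (x axis, *Drp1*LiKO minus control, brightest probe), placed in its role group (y axis), with black bars at the group medians, dashed lines at Z scores of 2 and -2 and triangles for bounds. A total of 3 genes that are not reported here have no point but count in the medians. The 6 detected genes of the group "other ABCA" lie below 0, with a median of -0.71, and the role groups of canalicular, basolateral and sinusoidal transporters each have genes on both sides of 0.

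Among the genes of cholesterol and lipid efflux, *Abcg1* stood apart. *Abcg1*, which passes cholesterol from cells to high-density lipoprotein and is known as a target of the liver X receptors, gave 60.7 on the control and 270 on the *Drp1*LiKO array, a 3.91-fold difference with a log2 ratio of 1.97 and a Z score of 3.03. It has 1 probe. *Abca1*, which loads cholesterol and phospholipid onto apolipoprotein A-I and is likewise a liver X receptor target, read 764 and 677, a log2 ratio of -0.36, with -0.28 on its second probe. The other genes of the group, *Abca7* and *Abcg4*, both had a log2 ratio of 0.04. The 2 liver X receptor genes, *Nr1h2* and *Nr1h3*, had log2 ratios of 0.18 and -0.09.

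*Abcg1* is also known for its expression in macrophages, and macrophage markers moved with it. Of 13 genes of the marker list for Kupffer cells and macrophages on the array, 12 were detected. All 12 had ratios above 0, 10 passed the threshold, and the median log2 ratio was 2.42. The 10 measured on both arrays were all above 0, with a median of 2.43. *Clec4f* and *Vsig4* were well above background on the *Drp1*LiKO array only. Their ratios are bounds and count among those past the threshold. The summed signal of the detected markers was 11113 on the control and 28902 on the *Drp1*LiKO array. *Adgre1* (F4/80) read 46.4 on the control and 330 on the *Drp1*LiKO array, and *Marco*, a scavenger receptor, read 50.7 and 628. *Timd4*, a marker of resident Kupffer cells, was not above background on either array. The part of these cells in the signal of *Abcg1* was not tested.

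Among the other OATPs, *Slco4a1*, a carrier of thyroid hormone and prostaglandins, gave 13.8 on the control array, not well above background, and 101 on the *Drp1*LiKO array, at least 4.87-fold higher (log2 ratio 2.28, Z score 3.51). Its other detected probe read 40.2 and 32.0, a log2 ratio of -0.51, so the probes of *Slco4a1* differed in direction. With only probes well above background on both arrays, -0.51 is the value of the gene.

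*Slco3a1*, a carrier of prostaglandins, was higher on each of the 3 probes measured on both arrays. The signals were 156 and 375, 51.6 and 140, and 43.4 and 130, with log2 ratios of 1.08, 1.26 and 1.40. Another detected probe, well above background on the control array only, read 24.1 and 10.8. The brightest probe fell short of the threshold at a Z score of 1.68, while the dimmest of the 3 passed it at 2.16. For the brightest probe the deposited values of 168 and 239 gave a log2 ratio of 0.51.

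*Slco2a1*, the prostaglandin transporter, gave 9796 on the control and 8582 on the *Drp1*LiKO array, a log2 ratio of -0.37. Its 4 probes differed by up to 1.61 on the log2 scale: the second brightest gave -0.45, and the 2 dimmer ones gave 1.17 and 0.44. The bright probes were thus lower and the dim probes higher in *Drp1*LiKO cells. *Slco1a5* read 4.76 and 21.8, a bound of 0.07 on the log2 scale. The other 7 genes of this group were not above background on either array.

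Most detected endothelial and stellate cell markers were higher in the *Drp1*LiKO culture as well. Of 10 endothelial markers all were detected and above 0, 5 past the threshold, with a median log2 ratio of 1.46. Their summed signal was 4599 and 9624. The 8 measured on both arrays were all above 0, also with a median of 1.46. *Tek* and *Lyve1* were well above background on the *Drp1*LiKO array only. The bound of *Lyve1* counts among those past the threshold. *Kdr*, a receptor of vascular endothelial growth factor, read 69.4 on the control and 435 on the *Drp1*LiKO array. Of 9 stellate cell markers 8 were detected, 7 above 0 and 4 past the threshold, with a median of 1.45. The 5 measured on both arrays were all above 0, with a median of 1.04. *Des*, *Pdgfrb* and *Col3a1* are bounds, and those of *Pdgfrb* and *Col3a1* count among the genes past the threshold. The summed signal was 21954 and 30135. Most of that sum is the signal of *Acta2*, which read 21437 and 24640, a log2 ratio of 0.02. *Des* was at -0.16. *Dcn*, the gene of the matrix proteoglycan decorin, had the highest ratio of the list and read 203 and 3848. *Lrat*, which makes retinyl esters, was not above background on either array. *Abcc9*, the regulatory SUR2 subunit of ATP-sensitive potassium channels and known from vascular mural cells, read 4.50 on the control and 49.1 on the *Drp1*LiKO array, at least 2.37-fold higher, with a Z score of 1.92 just short of the threshold. The part of endothelial and stellate cells in the signals of *Abcc9* and of the OATPs was not tested.

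Among the organic anion carriers of the *Slc22* family, 6 of 12 were detected, 3 above and 3 below 0. *Slc22a30* gave 53.1 on the control and 151 on the *Drp1*LiKO array, a log2 ratio of 1.32 and a Z score of 2.04, the smallest size past the threshold among the transporters. Its second probe read 37.3 and 71.9, a log2 ratio of 0.76, and another, well above background in control cells only, read 19.4 and 6.02. The brightest probe is the one printed above, with 23 bases in common with a probe of *Slc22a28*, which itself read 20.1 and 51.6. The brighter *Slc22a28* probe, which shares no such run, read 156 and 206, a log2 ratio of 0.22. The call of *Slc22a30* was lost with normexp background correction (Z score 1.86), in the deposited values (1.69), with no floor (1.43) and with the median of its probes (1.18).

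*Slc22a26*, another carrier of this cluster, read 51.7 on the control and 33.4 on the *Drp1*LiKO array, a log2 ratio of -0.81. *Slc22a6* (OAT1), best known from the kidney, read 29.8 and 13.9, at least 2.25-fold lower with a Z score of -1.79. *Slc22a8* (OAT3) read 23.9 and 21.7, a log2 ratio of -0.32. All 3 were near background, where the spot noise is largest.

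The organic cation and carnitine carriers had a median log2 ratio of -0.43 over 5 detected genes, 4 of them below 0. *Slc22a5* (OCTN2), the carnitine carrier of the plasma membrane, read 399 on the control and 307 on the *Drp1*LiKO array, a log2 ratio of -0.56, with 0.06 on its dim second probe. *Slc22a15*, a carrier related to the carnitine carriers, read 123 and 83.8, a log2 ratio of -0.74. Its other probes on both arrays gave -0.52, -0.47 and, for the dimmest, 0.52. *Slc22a4* (OCTN1), a carrier of ergothioneine, read 159 and 225, a log2 ratio of 0.32. Among the orphan carriers, whose substrates are little known, 3 of 4 were detected and lay between -0.01 and 0.20.

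**Figure D3:**
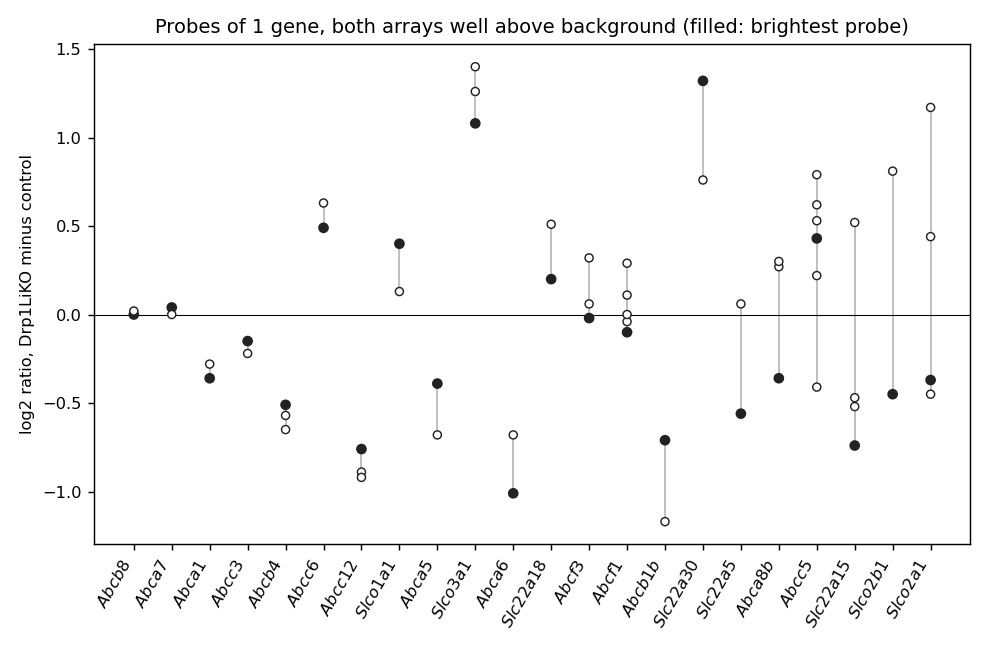
For the 22 genes with 2 or more probes well above background on both arrays, each point is the log2 ratio of a probe (y axis, *Drp1*LiKO minus control), with the brightest probe filled and a line joining the probes of a gene. In 14 genes the probes have 1 sign and in 8 they have both, and the 4 genes at the right (*Abcc5*, *Slc22a15*, *Slco2b1* and *Slco2a1*) differ by more than 1.

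The other ABCA genes were, of the role groups, the one with the lowest median. All 6 detected genes had a ratio below 0 by their brightest probe on the arrays, with a median log2 ratio of -0.71. In the deposited values of the same probes, *Abca3* was at 0.19. *Abca8a*, a lipid transporter, gave 70.1 on the control and 25.5 on the *Drp1*LiKO array, a 3.12-fold difference with a log2 ratio of -1.64 and a Z score of -2.51, the only transporter past the threshold that was lower. The call was lost with normexp background correction (Z score -1.73) and with no floor (-1.88). In the deposited values its other probe became the brightest and gave 2.13, while the probe described here gave -1.65. *Abca6* read 419 and 237, a log2 ratio of -1.01, with -0.68 on its second probe. *Abca4*, known for its role in photoreceptors, read 106 and 58.5, a log2 ratio of -1.04. The other 3 genes, *Abca17*, *Abca8b* and *Abca3*, gave -0.41, -0.36 and -0.07, and 2 dim probes of *Abca8b* gave 0.27 and 0.30.

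*Abca8a*, *Abca6*, *Abca8b* and *Abca5* are neighbours on chromosome 11, with *Abca9*, which was not above background, between them. By the brightest probes, 4 of 4 measured genes of this cluster of 335 kb were lower in *Drp1*LiKO cells. In the *Slco1* cluster on chromosome 6, together with *Abcc9*, 4 of 4 genes compared were above 0, from 0.07 to 1.28. Of these, *Slco1b2* (1.28) and *Slco1a1* (0.40) were measured on both arrays. *Slco1a5* (0.07) and *Abcc9* (1.25) are bounds and were compared only because the *Drp1*LiKO array read them well above background. *Abcb1a*, *Abcb1b* and *Abcb4* lie within 211 kb on chromosome 5, where *Abcb1a* was higher and the other two were lower. In the *Slc22a* cluster on chromosome 19, 2 of 5 compared genes were above 0. Neighbouring genes thus shared a direction in some clusters and not in others, and neighbouring genes are not independent.

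The *Abcb1* genes are closely related neighbours whose array signals went in opposite directions, although in the deposited values both were lower (-0.51 for *Abcb1a* and -0.49 for *Abcb1b*). The 250 bases before a start of transcription of each gene are shown, as RefSeq gives it in GRCm38.p6. The windows are chr5:8566841-8567090 for *Abcb1a* and chr5:8797897-8798146 for *Abcb1b*, both on the plus strand. Other starts of these genes were not searched, and whether these are the starts used in hepatocytes was not tested. Capitals mark 2 motifs searched on both strands, the CCAAT box (CCAAT, or ATTGG on the other strand) and the GC box (GGGCGG, or CCGCCC).
Abcb1a: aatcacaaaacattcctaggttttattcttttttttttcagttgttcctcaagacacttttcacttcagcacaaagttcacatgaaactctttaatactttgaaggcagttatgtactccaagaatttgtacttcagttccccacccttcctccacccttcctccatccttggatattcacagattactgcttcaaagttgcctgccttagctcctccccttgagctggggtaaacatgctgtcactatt
Abcb1b: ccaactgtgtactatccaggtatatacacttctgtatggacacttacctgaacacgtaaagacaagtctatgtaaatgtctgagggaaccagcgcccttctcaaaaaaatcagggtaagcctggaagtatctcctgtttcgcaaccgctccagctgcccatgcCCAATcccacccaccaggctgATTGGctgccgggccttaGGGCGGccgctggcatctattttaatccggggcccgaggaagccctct
The *Abcb1b* window holds 2 CCAAT boxes and 1 GC box, and the *Abcb1a* window holds none of the motifs searched. Of the 32851 promoters of the table, 33.8% hold a CCAAT box and 32.7% a GC box in windows of the same length. Over 84 transporter promoters, from the 72 of 88 genes found in the table, the shares were 29.8% and 33.3%. The TATA box (TATAAA) was found in 13.1% of transporter promoters and 12.4% of all, and the nuclear receptor half-site (AGGTCA) in 13.1% and 14.0%. The E-box (CACGTG) was found in 8.33% and 6.02%. A match describes letters only.

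None of the ABC transporters of organelles passed the threshold. Among the mitochondrial group, *Abcb10*, an inner membrane transporter tied to heme synthesis, read 834 on the control and 650 on the *Drp1*LiKO array, a log2 ratio of -0.54. *Abcb8* and *Abcb6*, of the same group, were at 0.00 and 0.15. The median of the 4 genes of the group was -0.01. In the group of peroxisomal and related genes, *Abcd3*, the branched-chain and dicarboxylic acyl-CoA transporter of peroxisomes, read 5660 and 4946, a log2 ratio of -0.38. The related gene *Abcd4* gave 0.25.

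In the lysosomal group, *Abcb9*, which moves peptides into lysosomes, read 561 on the control and 1253 on the *Drp1*LiKO array, a log2 ratio of 0.98 and a Z score of 1.51. *Abca5* and *Abca2* were at -0.39 and -0.35. The 4 proteins of the ABCE and ABCF families, which act in translation and carry no membrane domain, were below 0 by their brightest probes, from -0.42 for *Abce1* to -0.02. *Abcf1* read 9717 and 10277, a log2 ratio of -0.10, and its other probes ran from -0.04 to 0.29. The other probes of *Abcf3* gave 0.06 and 0.32. Of the other ABC genes, *Abcc12* was lower on each of 3 probes, at -0.76, -0.89 and -0.92, and *Abcc10* was at 0.24.

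The genes that govern these transporters were set beside them as a list that is no part of the families. Of 16 nuclear receptors and other regulators, 14 were detected, 6 above and 8 below 0, with a median log2 ratio of -0.03. *Nr1i3* (CAR), the receptor behind the drug response of *Cyp2b10*, gave 19.9 on the control and 104 on the *Drp1*LiKO array, a log2 ratio of 2.20 and the only one past the threshold. Its control signal was close to 18.2, the lowest well above background on that array, and 1 probe was detected. *Nr1h4* (FXR), the bile acid receptor, read 941 and 524, a log2 ratio of -1.03. *Nr1i2* (PXR) and *Nr0b2* (SHP), which is induced by FXR, were not above background on either array.

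Of 10 classic targets outside the transporters, 9 were detected and 9 of 9 had ratios above 0, with a median of 0.46. The 6 measured on both arrays were all above 0, with a median of 0.43. *Cyp1a1*, *Cyp4a14* and *Mylip* were well above background on the *Drp1*LiKO array only, and their ratios are bounds. *Cyp3a11*, a drug-metabolizing cytochrome, read 736 on the control and 3408 on the *Drp1*LiKO array, a log2 ratio of 2.03. *Cyp2b10* read 102 and 349, a log2 ratio of 1.59. *Cyp1a1*, a target of the aryl hydrocarbon receptor, read 11.0 and 53.0, at least 2.56-fold higher. These 3 passed the threshold. Of the sinusoidal and canalicular transporters, none passed the threshold. Their median log2 ratios were 0.40 over 5 detected sinusoidal uptake carriers and -0.33 over 7 canalicular pumps. A relation between these targets and the transporters was not tested.

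Other liver carriers of bile acids and drugs lay on both sides of 0, with a median of 0.01 over 6 of 8 detected genes. *Slc10a1* (NTCP), which takes up conjugated bile acids, read 159398 on the control and 203718 on the *Drp1*LiKO array, a log2 ratio of 0.17. *Slc29a1*, a nucleoside carrier, read 6713 and 4020, a log2 ratio of -0.92. The 4 genes that anchor the canalicular membrane, *Ezr*, *Rdx*, *Msn* and *Pdzk1*, lay between -0.26 and 0.09. None of these carriers and anchors passed the threshold.

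**Figure D4:**
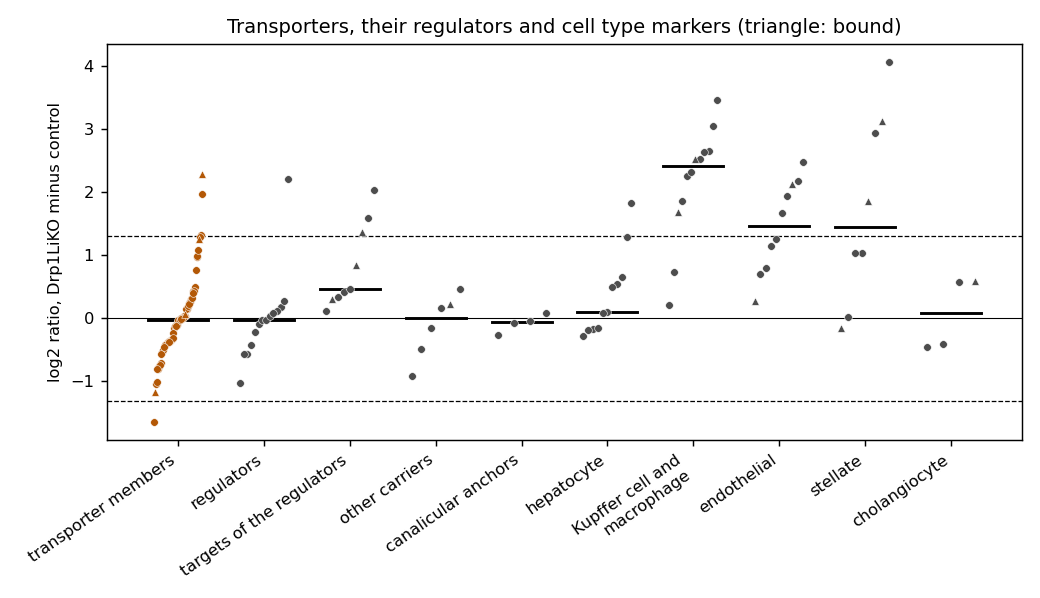
Log2 ratios (y axis, *Drp1*LiKO minus control) of the 61 transporter genes, of their regulators, targets and related genes, and of cell type markers, 1 column of points each, with bars at the medians, dashed lines at Z scores of 2 and -2 and triangles for bounds. The transporters have a median of -0.02, the classic targets 0.46, hepatocyte markers 0.10, macrophage markers 2.42, endothelial markers 1.46 and stellate markers 1.45.

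Of the 11 hepatocyte markers, 7 had ratios above 0 and 4 below. *Ahsg*, the gene of fetuin-A, passed the threshold at a log2 ratio of 1.83, *Tat*, tyrosine aminotransferase, was at 1.28, and the lowest, *Fgb*, the fibrinogen beta chain, *Serpina1a*, *Apoa1* and *Apob*, were between -0.28 and -0.16. The median was 0.10. Markers of cholangiocytes, the cells that line bile ducts, were at a median of 0.09 over 4 detected genes, or -0.40 over the 3 measured on both arrays, with *Epcam* and *Cftr* not above background on either array. The part of differences between cultures of hepatocytes in the signals of the transporters was not tested.

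The authors also deposited normalized values of the same arrays, and the transporters were set against them probe by probe. On the control array, 0 of 181 transporter probes lay over 1 log2 unit from the median shift between the sources. On the *Drp1*LiKO array, 11 of 181 probes did. Of the 61 genes compared, 47 had ratios within 0.25 of those from the array signals, and 2 differed by more than 1. These were *Abcb1a*, described above, and *Abca4*, whose deposited values of 115 and 12.7 gave a log2 ratio of -2.28. *Abcg1* was at a deposited log2 ratio of 1.81 and *Slco1b2* at 1.14, so both kept their direction.

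**Figure D5:**
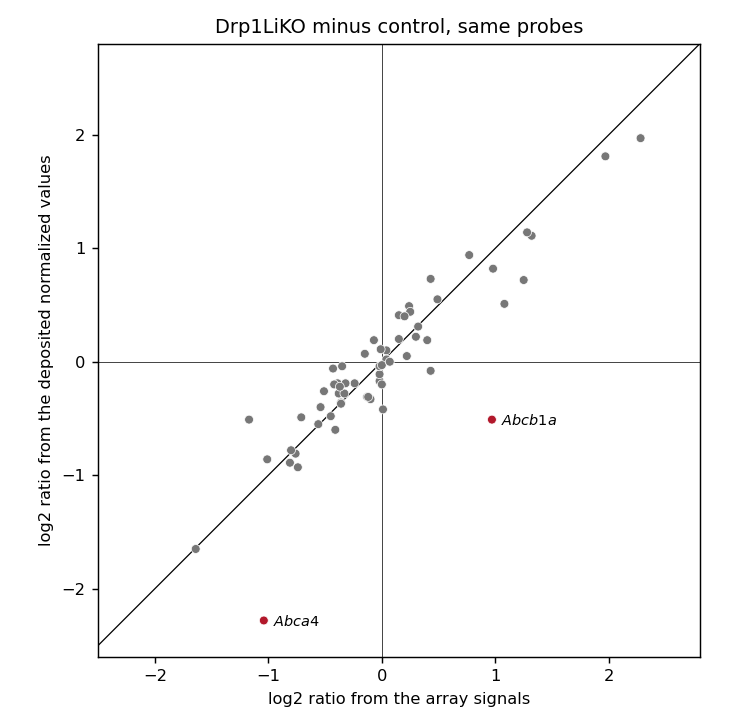
For the 61 transporter genes, the log2 ratio from the array signals (x axis) is plotted against that of the same probes in the normalized values the authors deposited (y axis), with the line of equal ratios. *Abcb1a* and *Abca4*, in red, differ by more than 1, at 0.97 against -0.51 and -1.04 against -2.28.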

How the data were processed

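RNA of control and *Drp1*LiKO primary hepatocytes was labelled with Cy3 and read on 1 Agilent 60-mer array per genotype. The authors deposited the Feature Extraction output of each array, version 10.7.1.1 in the file headers and 9.5.1.1 in the submitters' processing notes, with the intensity of each spot as a background-corrected processed signal. They also deposited normalized intensities, by a method not given in the sources used here; of these, the *Drp1*LiKO column did not follow its array for all probes, and they served only as an alternative. Here, spots for controls or marked as outliers were dropped, the log2 processed signals of a probe's spots were averaged, each array's 75th percentile was subtracted, and a probe was compared if either array read it well above background.

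The transporters and every gene list were chosen with earlier results of these data known. Named were all transporters past the threshold, the 5 largest ratios in each direction, the canalicular, basolateral, sinusoidal and cholesterol groups, genes whose probes differed by more than 1, and the 5 brightest in control cells. The choice of any other gene or probe in the text was made with its value in view. Single values of 3 detected transporters and 1 probe sequence are not reported here. Gene names and coordinates are those of the array design (mm9); promoter sequences are from RefSeq (GRCm38.p6). The alternatives were quantile normalization, normexp correction with an offset of 50, spike-in scaling, the deposited intensities, a stricter filter on dim probes and none, leaving out the floor, keeping outlier spots, a robust Z score and the median of a gene's probes. The comparison of deposited and array values probe by probe was added after the data were seen. The steps were tested on simulated data. The software was limma 3.58.1 in R 4.3.3 for normexp, and pandas 2.3.3, numpy 2.4.6 and scipy 1.17.1 in Python 3.11.15 for the rest; plots were drawn with matplotlib 3.10.9.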

Additional observations from a re-analysis of the deposited data

How the results depend on the processing

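The 4 transporters past the threshold, 3 higher and 1 lower, were also those under quantile normalization, spike-in scaling and with outlier spots kept. The higher count was 6 of 61 with normexp correction, beside 3.63% of all genes, and 8 of 88 with no filter on dim probes, beside 3.66%. With a robust Z score it was 9 of 61, beside 8.54% of all genes. In these settings the share of higher transporters lay further above that of all genes than in the main setting. With the median of a gene's probes the higher count was 1 of 61 (*Abcg1*), beside 3.21%. The lower count was 0 of 61 with normexp correction and with no floor, beside 2.71% and 2.53% of all genes. With a robust Z score it was 7 of 61, a larger share than the 7.16% of all genes. *Slc22a30* was not among the higher genes with normexp correction, in the deposited values, with no floor or with the median of probes. In the deposited values the higher genes were *Abca8a*, *Abcg1*, *Slco4a1* and *Slco6d1*, and the lower one was *Abca4*. The *Slco6d1* probe stood at 3.81 for control and 85.7 for *Drp1*LiKO there. Its array signals were 3.91 and 3.21, not well above background on either array. Over all genes, 3.52% were higher and 2.71% were lower in those values. The median log2 ratio of the transporters was -0.08 with normexp correction and in the deposited values, -0.09 with probes well above background on both arrays, and -0.38 with no filter, where the median of all genes was -0.47. *Abcg1* lay between 1.29 and 2.01 over the 10 alternatives. *Abca8a* reversed to 2.13 in the deposited values, where its other probe stood at 13.2 and 104 and became the brightest (its array signals were 11.7 and 5.09); its main probe gave -1.65 there. *Slco4a1* reversed to -0.51 with probes well above background on both arrays, which leaves out its brightest probe. Of 32 named transporters with a value, 23 had 1 sign under all alternatives; the others included *Abca8a*, *Slco4a1*, *Abcb1a*, *Abcc3*, *Slc22a7*, *Abcf1*, *Slco2a1* and *Slco2b1*. No paired analysis was possible because there was 1 array per genotype. Signals near background limit 27 of the 88 genes, which have no ratio.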
